A study of Mus musculus with 36 samples.

Results

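Amino acid and oligopeptide transporters form the solute carrier families Slc1, Slc3, Slc6, Slc7, Slc15, Slc36, Slc38 and Slc43, and Tmem27 (collectrin) is the accessory protein of the renal Slc6 carriers. The genes were taken by symbol from a table of read counts of mouse kidney cortex: 51 of its 15730 genes carry a symbol of these families or are Tmem27, and all 51 were among the 15726 genes tested. The families held 5 Slc1, 2 Slc3, 12 Slc6, 12 Slc7, 4 Slc15, 3 Slc36, 9 Slc38 and 3 Slc43 genes. The 12 Slc7 symbols include Slc7a6os, which is named for lying on the opposite strand beside Slc7a6 and is not a transporter. The choice used names and no measured value.

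All mice were ApoE-/- males on a C57BL/6 background, nondiabetic animals included, so no group carried a functional Apoe gene. Diabetes was induced at 6 weeks of age by 5 daily doses of streptozotocin, a toxin of pancreatic beta cells, at 55 mg/kg. In both states, mice were dosed 2 times a week with 0.1% ethanol as vehicle, with LXA4 (lipoxin A4) at 5 µg/kg, a signal lipid that helps inflammation resolve, or with benzo-LXA4, its synthetic analog, at 1.7 µg/kg. An intervention with dosing from week 10 to week 16 is described in the labels, which do not tie the libraries to it. There were thus 6 groups, with 6 libraries in each, made from total RNA depleted of ribosomal RNA. The labels do not state that each replicate is a separate mouse, so the p-values measure the spread between these samples.

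The proximal tubule takes back nearly all filtered amino acids. Sodium-coupled carriers and exchangers of the brush border bring them into the cell, exchangers and facilitated carriers of the basolateral membrane pass them to the blood, and several carriers work only with a partner protein, such as the heavy chains Slc3a1 (rBAT) and Slc3a2 (CD98) or collectrin. The Slc15 carriers take up dipeptides and tripeptides with protons, and the Slc36 and Slc38 families include lysosomal and glutamine carriers. In rodents several of the late proximal tubule carriers are known to depend on sex hormones.

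Depth ran from 8896193 to 43305005 counts per library. Nondiabetic vehicle replicate 3 and diabetic LXA4 replicate 6 were the shallowest and had 11.6% and 42.9% of their counts on structural RNA genes, against 1.83% to 3.37% in the other 34. The 51 genes took 0.203% of the counts of diabetic LXA4 replicate 6 and 0.435% to 0.649% in the other 35. Levels are CPM, counts scaled to a common library total with TMM factors. Differences are log2 changes from edgeR's quasi-likelihood test, with p-values adjusted over all genes tested by the Benjamini-Hochberg method and called under 0.05. Of the proximal tubule markers, all 7 were detected and abundant, and their summed level was lower in diabetic mice: its median was 17348 CPM in nondiabetic and 12547 CPM in diabetic vehicle mice, 17327 and 12662 CPM under LXA4, and 15122 and 13404 CPM under benzo-LXA4. The ranges of this sum did not overlap under LXA4 (10965 to 14841 CPM against 16746 to 18424 CPM), and overlapped under the other treatments. In such bulk samples fewer cells of a type and less RNA per cell cannot be told apart, and the part of this difference in the changes below was not tested.

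The promoters of 3 genes are shown because collectrin and Slc3a1 were the partner proteins at the top of the level order and Slc15a1 had the largest averaged rise in diabetes of the 51 genes. RefSeq promoters on GRCm38.p6 were matched for 36 of the 51 genes, and the 250 bases before the start site are printed from 5′ to 3′ on the gene's strand. Capitals mark matches to GTTAAT, any base, ATT (the HNF1 motif), CAAAGTCCA (the HNF4 motif) or TATAAA (the TATA box), searched on both strands, where 2 of the TATAAA matches of Slc3a1 overlap. The promoter of Tmem27 (listed there as Cltrn, the first of its 2 start sites, chrX:164089937-164090186, plus strand) has an HNF1 match 54 to 45 bases before the start. The promoter of Slc3a1 (chr17:85028097-85028346, plus strand) has an HNF4 match 39 to 31 bases before the start and TATAAA matches at 124 to 119, 20 to 15 and 18 to 13 bases. The promoter of Slc15a1 (chr14:121505255-121505504, minus strand) has none of these letters.
Tmem27: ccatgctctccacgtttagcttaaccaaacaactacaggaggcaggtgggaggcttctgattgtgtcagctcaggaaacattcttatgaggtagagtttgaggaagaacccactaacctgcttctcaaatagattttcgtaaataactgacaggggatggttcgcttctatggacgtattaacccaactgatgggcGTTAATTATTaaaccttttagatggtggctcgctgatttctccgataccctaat
Slc3a1: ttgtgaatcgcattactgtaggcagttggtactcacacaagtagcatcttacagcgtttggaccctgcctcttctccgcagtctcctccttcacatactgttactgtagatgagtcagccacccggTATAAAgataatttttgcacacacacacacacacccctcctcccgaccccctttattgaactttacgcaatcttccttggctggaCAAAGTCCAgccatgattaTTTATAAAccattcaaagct
Slc15a1: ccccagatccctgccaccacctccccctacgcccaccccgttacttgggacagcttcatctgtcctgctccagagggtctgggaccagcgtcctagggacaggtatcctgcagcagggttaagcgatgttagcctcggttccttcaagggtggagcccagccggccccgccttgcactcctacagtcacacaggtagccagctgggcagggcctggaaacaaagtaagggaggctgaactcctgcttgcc
Of all 32851 RefSeq promoters, 0.371% hold the HNF1 letters, 0.384% the HNF4 letters and 12.4% TATAAA. Hnf4a, which encodes the factor the second motif is named for and which maintains proximal tubule identity, was lower in diabetic mice averaged over treatments (log2 −0.30, 95% interval −0.42 to −0.18, adjusted p = 1.60e-04). Of the 36 genes matched, only Slc3a1 held the HNF4 letters and only Tmem27 the HNF1 letters. Motifs of ATF4 with C/EBP and of the antioxidant response were also searched, with matches in 2 (Slc7a7 and Slc7a11) and 0 genes. A match of letters is a description and not a measured binding site, and a link between Hnf4a and these genes was not tested.

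In nondiabetic vehicle mice the collectrin and cystine carrier system stood at the top of the levels. Per kilobase of exon, Tmem27 had a median of 396 CPM and Slc7a13, the cystine, aspartate and glutamate carrier of the late proximal tubule, 322 CPM, with overlapping ranges. Slc3a1, the heavy chain shared by Slc7a9 and Slc7a13, followed at 225 CPM per kilobase, and its range lay below that of Slc7a13 and above that of the next gene. Slc6a18 (glycine and neutral amino acids, 107 CPM per kilobase) and Slc6a19 (the main apical neutral amino acid carrier B0AT1, 80.6 CPM per kilobase) came next with ranges that overlapped. From there down to Slc38a10 each gene overlapped its neighbour.
At the other end Slc7a11, the cystine carrier for glutathione synthesis, was the lowest at 0.0490 CPM per kilobase, with Slc36a2 (0.0619), Slc38a11 (0.111) and Slc15a1 (0.174) just above it, each overlapping its neighbour. The whole order spans all 51 genes, and 4 of them had a median under 1 CPM.

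**Figure D1:**
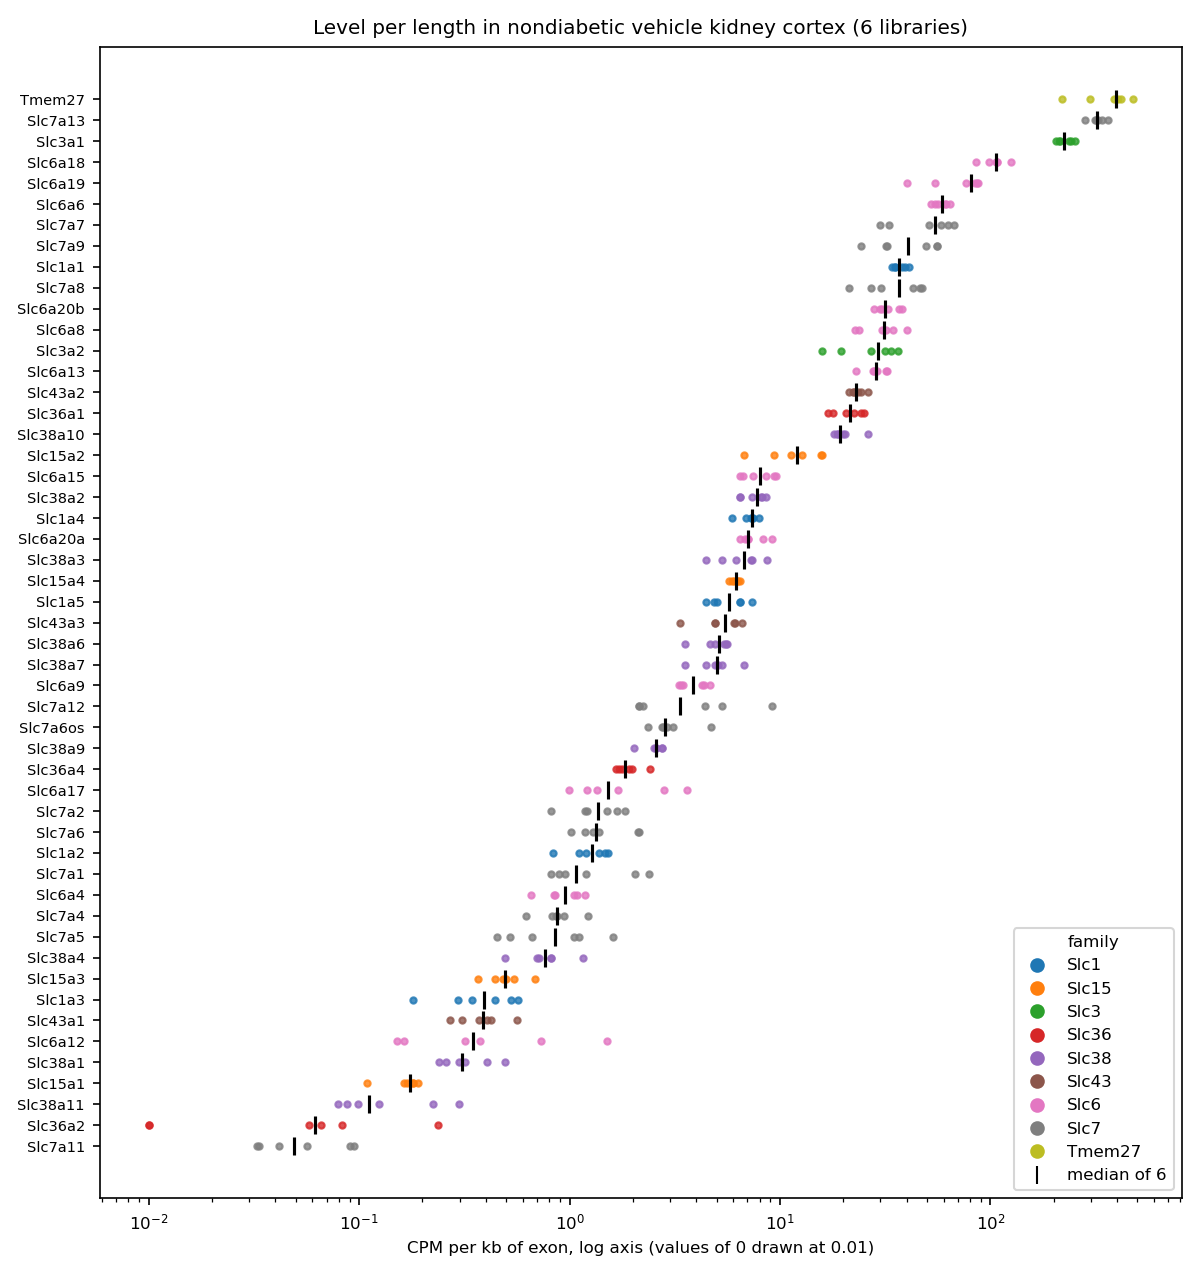
Level per length of each of the 51 genes in the 6 nondiabetic vehicle libraries (CPM per kilobase of exon, log axis, values of 0 drawn at 0.01), points coloured by family and the median as a bar. The lowest libraries of Tmem27, Slc7a13 and Slc3a1 lie at 220, 281 and 205 CPM per kilobase, above every other gene, and Slc7a11 has the lowest median at 0.0490.

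Diabetes was compared within each treatment and averaged over the 3 treatments. In the average, 22 of 51 genes passed the test, 8 higher (15.7%) and 14 lower (27.5%), that is 43.1% beside 35.4% of all genes tested (18.8% higher and 16.6% lower). Slc36a2 is among the 14, and its call held in 16 of 36 fits that left out a library. Without the 2 libraries rich in structural RNA 25 of 51 passed in the average, beside 47.4% of all genes. Under vehicle 2 passed (3.92%, 1 higher and 1 lower), beside 5.6% of all genes (3.44% higher, 2.16% lower), under LXA4 18 (35.3%, 5 higher and 13 lower), beside 27.7% of all genes (15.4% higher, 12.3% lower), and under benzo-LXA4 6 (11.8%, 3 higher and 3 lower), beside 4.06% (2.81% higher, 1.25% lower). Under vehicle the share is close to that of all genes. Of the 6 benzo-LXA4 calls, Slc36a2 was lost without nondiabetic benzo-LXA4 replicate 1. Slc38a3 and Slc6a15 held in 1 and 3 of 12 fits that left out a library. With those groups alone 10 of 51 passed under benzo-LXA4, beside 12.0% of all genes. Without the 2 libraries rich in structural RNA 9 did, beside 12.1%. The median log2 difference of the 51 genes was −0.02 under vehicle, −0.03 under LXA4, −0.11 under benzo-LXA4 and −0.03 in the average, beside −0.01, 0.05, −0.01 and 0.01 over all genes. The 3 treatments use separate libraries: 31 of 51 genes had the same sign in all 3 (12 higher, 19 lower, 60.8%), beside 54.8% of all genes. The diabetic and nondiabetic libraries did not overlap for 2 genes under vehicle, 9 under LXA4 and 3 under benzo-LXA4, beside 2.57%, 12.0% and 5.81% of all genes.

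**Figure D2:**
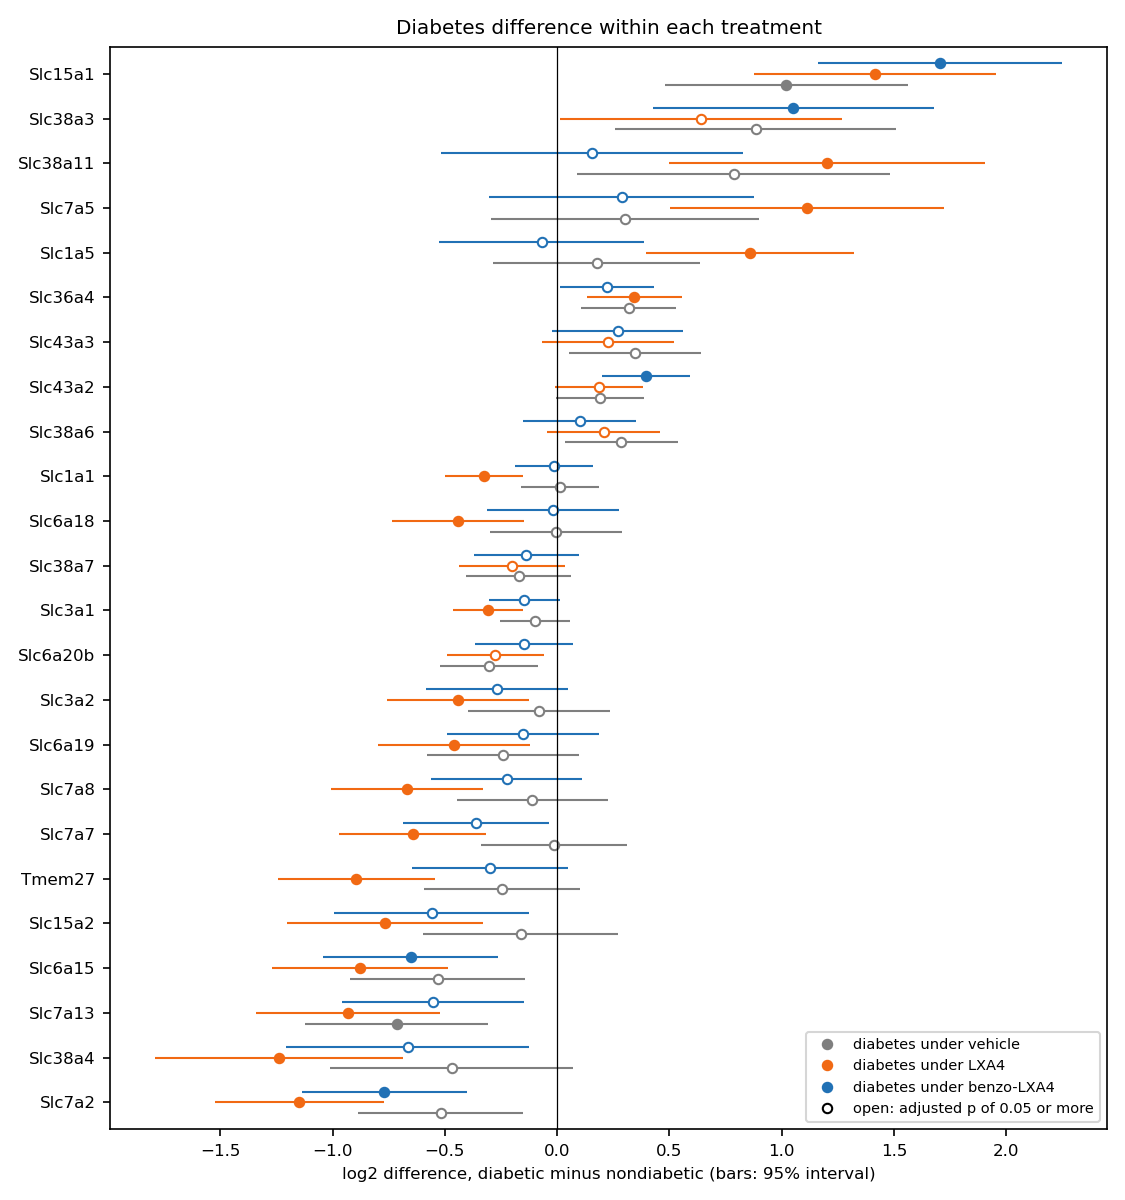
Log2 difference between diabetic and nondiabetic mice (bars are 95% intervals) for each called gene other than Slc36a2, within vehicle (grey), LXA4 (orange) and benzo-LXA4 (blue), with filled points for adjusted p under 0.05. Slc15a1 lies to the right of 0 in every treatment, and Slc7a2 to the left with LXA4 at −1.15.

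Of the 4 oligopeptide carriers, Slc15a1 rose and Slc15a2 fell in the average, where 35.4% of all genes passed. Slc15a1 (PEPT1, the low-affinity peptide carrier of the early proximal tubule and the gut, ENSMUSG00000025557, chr14:121459621-121505252, minus strand) rose in diabetic mice under every treatment. Under vehicle it ran from 0.533 to 0.927 CPM (median 0.851) in nondiabetic and from 1.01 to 2.16 CPM (median 1.77) in diabetic mice. Under LXA4 it ran from 0.411 to 1.10 CPM (median 0.707) and from 0.472 to 2.64 CPM (median 1.84), and under benzo-LXA4 from 0.447 to 0.892 CPM (median 0.608) and from 1.13 to 2.84 CPM (median 2.06). The groups did not overlap under vehicle and benzo-LXA4, and under LXA4 the only diabetic library within the nondiabetic range was replicate 6, the one rich in structural RNA. The log2 change was 1.02 (SE 0.27, adjusted p = 0.0188) under vehicle, 1.42 (SE 0.27, adjusted p = 3.70e-04) under LXA4 and 1.70 (SE 0.27, adjusted p = 1.52e-04) under benzo-LXA4. In the average it was 1.38 (95% interval 1.07 to 1.69, adjusted p = 4.33e-08), and the gene passed in every fit that left out a library.

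Slc15a2 (PEPT2, the high-affinity carrier of the late proximal tubule) fell in the average. It ran from 49.7 to 129 CPM (median 108) in the 18 nondiabetic libraries and from 20.8 to 97.7 CPM (median 69.7) in the 18 diabetic ones, all 18 below the nondiabetic median. The log2 change was −0.50 (adjusted p = 0.00224) in the average and −0.76 (adjusted p = 0.00896) under LXA4, with −0.16 (adjusted p = 0.709) under vehicle and −0.56 (adjusted p = 0.151) under benzo-LXA4. The lysosomal carriers Slc15a3 and Slc15a4 had differences of 0.03 and 0.08 in the average and did not pass. Slc15a2 stood far above Slc15a1 per length, with medians of 12.0 and 0.174 CPM per kilobase in nondiabetic vehicle mice.

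Of the 7 genes listed as carriers of cationic, cystine and acidic amino acids, 3 fell and none rose in the average. Under vehicle 1 fell, under LXA4 4 and under benzo-LXA4 1. Of all genes, 16.6% fell in the average, 2.16% under vehicle, 12.3% under LXA4 and 1.25% under benzo-LXA4. In either direction 35.4%, 5.6%, 27.7% and 4.06% of all genes passed. The median log2 difference of the 7 was −0.18 in the average and −0.33 under LXA4. The 7 include Slc7a12, which was not established here as a carrier of these amino acids. Slc7a13 (ENSMUSG00000041052, chr4:19818725-19842218, plus strand), which pairs with Slc3a1, ran under vehicle from 602 to 776 CPM (median 689) in nondiabetic and from 199 to 667 CPM (median 417) in diabetic mice. Under LXA4 it ran from 750 to 953 CPM (median 785) and from 270 to 539 CPM (median 466), and under benzo-LXA4 from 513 to 819 CPM (median 658) and from 340 to 571 CPM (median 437). The groups were apart under LXA4, and under vehicle a single diabetic library, replicate 2, lay inside the nondiabetic range. Its log2 changes were −0.71 (SE 0.20, adjusted p = 0.0287), −0.93 (SE 0.20, adjusted p = 0.00130) and −0.55 (SE 0.20, adjusted p = 0.121) under vehicle, LXA4 and benzo-LXA4, and −0.73 (adjusted p = 1.29e-05) in the average. The call under vehicle was lost without diabetic vehicle replicate 3, 4 or 5 or nondiabetic vehicle replicate 3 or 6 (adjusted p up to 0.0981).

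Slc7a2 (CAT2, a cationic amino acid carrier that supplies arginine, ENSMUSG00000031596, chr8:40862396-40922308, plus strand) was low and fell in diabetes. Under LXA4 it ran from 9.31 to 19.3 CPM (median 12.5) in nondiabetic and from 4.01 to 7.22 CPM (median 6.21) in diabetic mice, and under benzo-LXA4 from 8.23 to 16.2 CPM (median 11.9) and from 5.65 to 7.67 CPM (median 7.26). Under vehicle the ranges of 7.45 to 16.7 CPM (median 12.4) and 6.79 to 11.6 CPM (median 8.39) overlapped. The groups did not overlap under either compound, and all 18 diabetic libraries lay below the nondiabetic median of 12.5 CPM. Slc7a2 changed by −1.15 (SE 0.18, adjusted p = 6.64e-05) under LXA4, −0.77 (SE 0.18, adjusted p = 0.0108) under benzo-LXA4 and −0.52 (SE 0.18, adjusted p = 0.0843) under vehicle. The test of the difference between the LXA4 and vehicle values gave −0.63 (95% interval −1.15 to −0.11, adjusted p = 0.229), so the treatments were not shown to differ.

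The heavy chain Slc3a1 fell by a small amount. It ran from 544 to 597 CPM (median 553) in nondiabetic and from 387 to 537 CPM (median 443) in diabetic LXA4 mice, with no overlap, a log2 change of −0.31 (adjusted p = 0.00394). In the average the change was −0.18 (95% interval −0.27 to −0.09, adjusted p = 0.00158). Slc1a1, the apical glutamate and aspartate carrier, fell under LXA4, where it ran from 325 to 381 CPM (median 359) in nondiabetic and from 239 to 327 CPM (median 288) in diabetic mice, which overlapped at their edges (log2 −0.33, adjusted p = 0.00569) and had −0.11 (adjusted p = 0.0824) in the average. Slc7a9, the light chain partner of Slc3a1 for cystine and cationic amino acids, had −0.26 (adjusted p = 0.0642) in the average, and passed without the pair of libraries rich in structural RNA (−0.23, adjusted p = 0.0279). Slc7a9 ran from 65.0 to 149 CPM (median 110) in nondiabetic and from 31.6 to 117 CPM (median 93.0) in diabetic libraries. Slc7a1, the widespread cationic carrier CAT1, had 0.25 (adjusted p = 0.202), with medians of 11.7 and 15.1 CPM.

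Slc7a12, an Slc7 carrier of mouse kidney, varied widely among diabetic vehicle libraries. Its levels in replicates 1 to 6 were 2.65, 7.44, 25.6, 69.1, 48.5 and 6.95 CPM, against 3.71, 7.70, 9.27, 16.0, 3.74 and 3.90 CPM in nondiabetic vehicle mice. Diabetic vehicle replicates 4 and 5, the highest, also had the lowest Slc7a13 (270 and 199 CPM) and the lowest summed proximal tubule markers of the group (10527 and 10495 CPM). Replicate 4 had the group's highest Slc6a18 (772 CPM) and Slc3a1 (550 CPM) as well. Diabetic LXA4 replicate 3 had 34.1 CPM of Slc7a12 with a marker sum of 12617 CPM, inside the range of its group. A relation between these levels was not tested. The log2 difference of Slc7a12 under vehicle was 1.87 (95% interval 0.56 to 3.18) and did not pass (adjusted p = 0.0821).

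**Figure D3:**
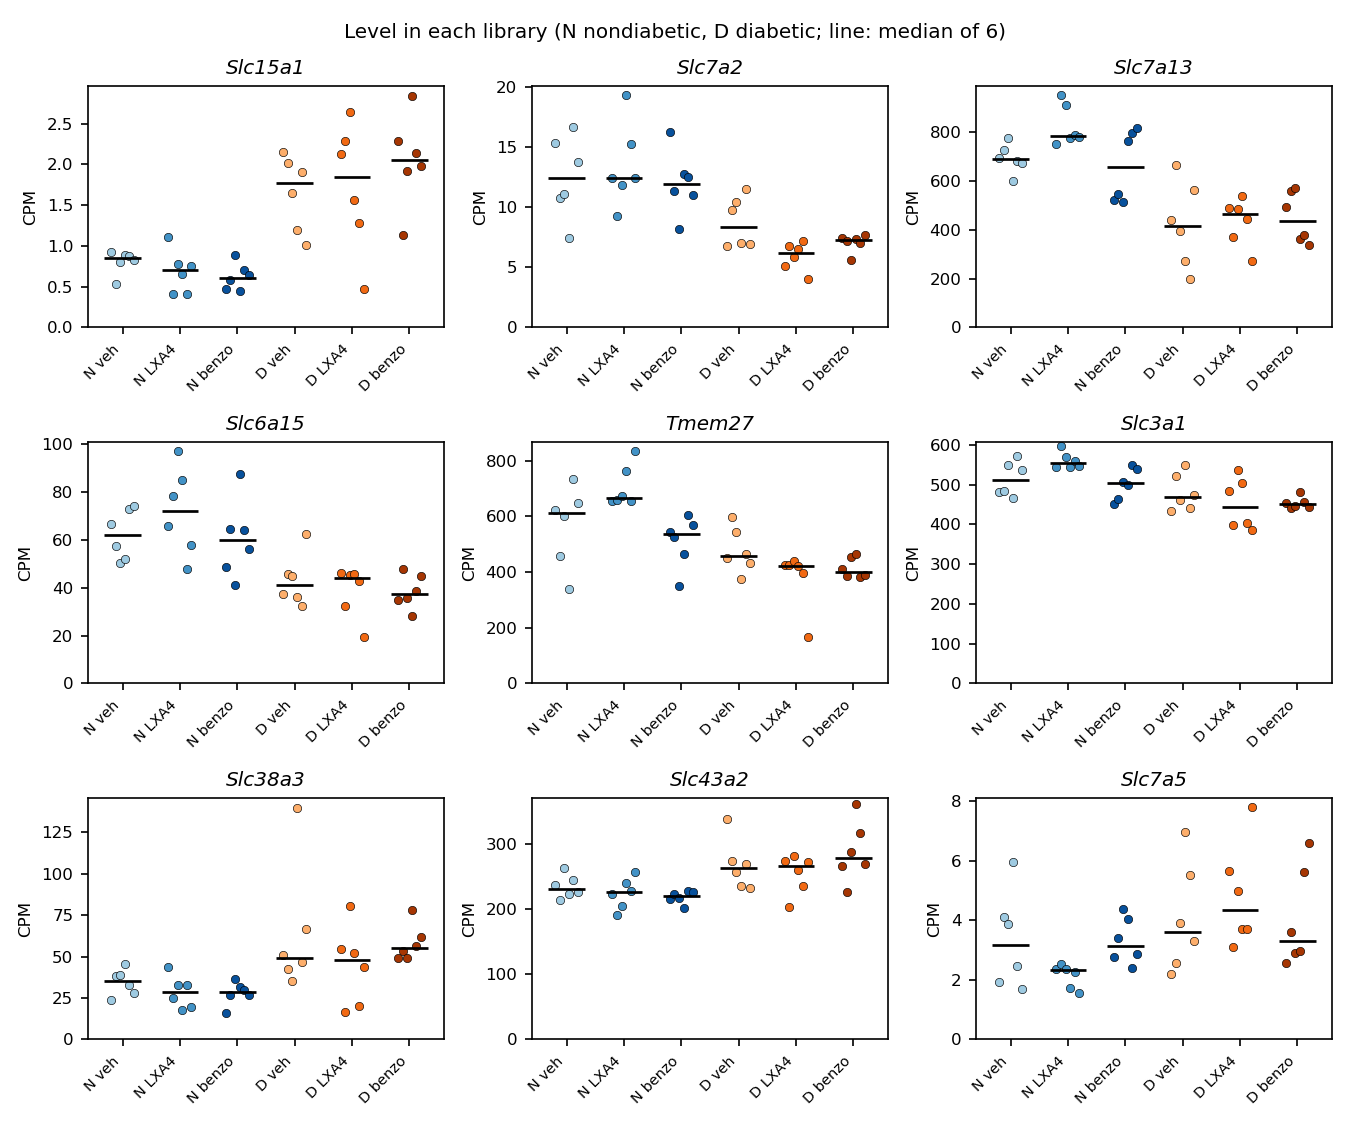
Level in every library (CPM, linear axes from 0, line at the median of 6) of 9 genes in nondiabetic (N) and diabetic (D) mice under vehicle (veh), LXA4 and benzo-LXA4 (benzo). Diabetic LXA4 replicate 6 is the lowest Tmem27 point at 168 CPM, and diabetic vehicle replicate 4 the highest Slc38a3 point at 140 CPM.

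Of the 7 genes listed as apical carriers and partners for neutral and imino acids, 4 were lower and none higher in the average. The averaged call of Slc36a2 among the 4 held in 16 of 36 fits that left out a library. Under LXA4 3 were lower, under benzo-LXA4 1 (Slc36a2, through a single library) and under vehicle 0. The LXA4 calls of Slc6a19 and Slc6a18 held in 6 and 10 of 12 fits that left out a library, and that of Tmem27 in 12. Of all genes, 16.6% fell in the average, 12.3% under LXA4, 1.25% under benzo-LXA4 and 2.16% under vehicle. In either direction 35.4%, 27.7%, 4.06% and 5.6% of all genes passed. The 7 had a median log2 difference of −0.24 in the average and −0.44 under LXA4. Tmem27, collectrin, which carries Slc6a19 to the brush border (ENSMUSG00000015401, chrX:164088830-164118860, plus strand), ran under LXA4 from 654 to 834 CPM (median 665) in nondiabetic and from 168 to 440 CPM (median 422) in diabetic mice. Under vehicle it ran from 339 to 734 CPM (median 612) and from 376 to 599 CPM (median 458), and under benzo-LXA4 from 351 to 604 CPM (median 536) and from 383 to 464 CPM (median 400). The groups were apart under LXA4 alone, with or without the low replicate 6. The log2 change under LXA4 was −0.89 (SE 0.17, adjusted p = 4.61e-04), or −0.75 (adjusted p = 2.52e-04) without the pair of libraries rich in structural RNA. Under vehicle it was −0.25 (adjusted p = 0.427) and under benzo-LXA4 −0.30 (adjusted p = 0.382), and the difference between LXA4 and vehicle was −0.65 (95% interval −1.14 to −0.16, adjusted p = 0.193). In the average Tmem27 fell by 0.48 on the log2 scale (adjusted p = 3.43e-04), and all 18 diabetic libraries lay below the nondiabetic median of 614 CPM.

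Slc6a19 fell with its partner in the average, by less. It ran from 202 to 519 CPM (median 351) in nondiabetic and from 210 to 372 CPM (median 273) in diabetic libraries, 17 of 18 below the nondiabetic median, a log2 change of −0.28 (adjusted p = 0.0207). Slc6a20b, which was not established here as a proline carrier, ran from 228 to 327 CPM (median 282) and from 171 to 282 CPM (median 242), a change of −0.24 (adjusted p = 0.00269). Its near copy Slc6a20a had 0.15 (adjusted p = 0.246), and reads could have been divided between these paralogs, so their separate values are uncertain. Slc6a18, the neighbour of Slc6a19 on chromosome 13, fell under LXA4 (500 to 638 CPM, median 541, against 277 to 532 CPM, median 410, log2 −0.44, adjusted p = 0.0217) and had −0.16 (adjusted p = 0.145) in the average. The proton-coupled carrier Slc36a1 had −0.12 (adjusted p = 0.239), with medians of 119 and 111 CPM.

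Slc36a2, a proline and glycine carrier known from kidney and also enriched in brown fat, passed under benzo-LXA4 through a single library. In nondiabetic benzo-LXA4 mice replicates 1 to 6 had 27.6, 2.76, 0, 0.366, 0.0827 and 0.0637 CPM, and the diabetic ones 0.125, 0.0613, 0.134, 0, 0.112 and 0.0775 CPM. The same nondiabetic replicate 1 had a summed level of 194 CPM of the adipocyte markers Adipoq, Plin1 and Cidec and 122 CPM of Ucp1, the brown fat uncoupling protein. In the other 35 libraries that sum ran from 0 to 12.1 CPM, and of the 4 listed adipocyte markers Lep was not in the table. The log2 change of −5.81 (SE 1.39, adjusted p = 0.0121) became −2.77 without that library (adjusted p = 0.282), and the change in the average (−2.01, adjusted p = 0.046) also did not pass without it. That averaged call held in 16 of 36 fits that left out a library. The plot of Slc36a2 against the adipocyte markers shows the libraries in which both were high.

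**Figure D4:**
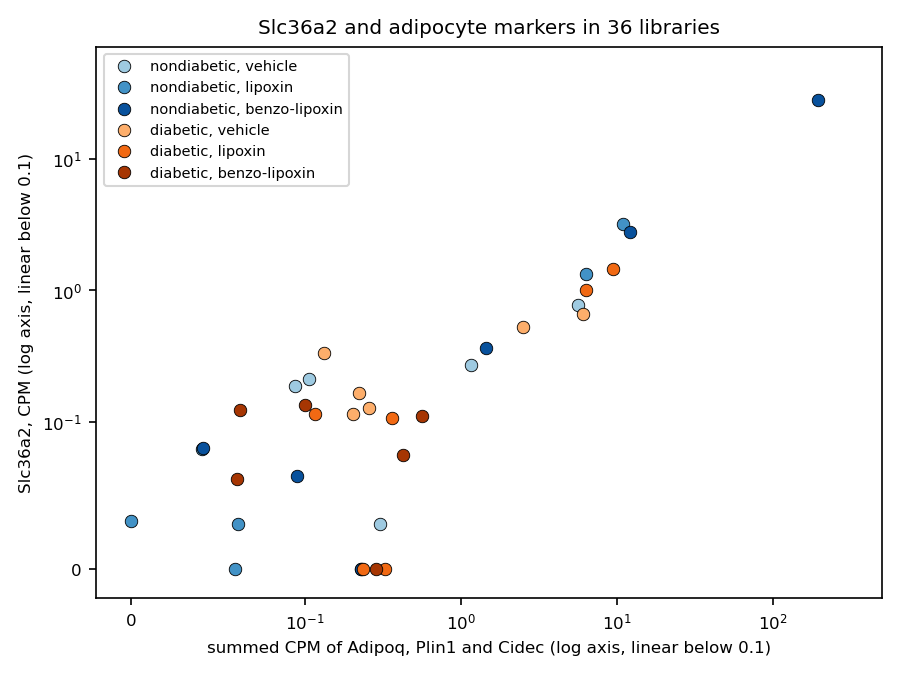
Slc36a2 (CPM) against the summed level of Adipoq, Plin1 and Cidec (CPM) in each of the 36 libraries, both axes logarithmic above 0.1 and linear below, coloured by group. Nondiabetic benzo-LXA4 replicate 1 stands alone at 194 and 27.6 CPM.

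Slc6a15 (SBAT1 or B0AT2, a carrier of branched-chain amino acids and proline known mainly from brain, ENSMUSG00000019894, chr10:103367783-103419377, plus strand) fell in diabetes. Under vehicle it ran from 50.2 to 74.2 CPM (median 62.1) in nondiabetic and from 32.4 to 62.4 CPM (median 41.2) in diabetic mice. Under LXA4 it ran from 47.7 to 96.9 CPM (median 72.0) and from 19.4 to 46.1 CPM (median 44.0), and under benzo-LXA4 from 40.9 to 87.3 CPM (median 60.0) and from 28.0 to 47.9 CPM (median 37.2). The groups were apart under LXA4, and all 18 diabetic libraries lay below the nondiabetic median of 64.3 CPM. Slc6a15 differed by −0.53 (adjusted p = 0.0957), −0.88 (adjusted p = 0.00148) and −0.65 (adjusted p = 0.0464) under vehicle, LXA4 and benzo-LXA4, and −0.69 (95% interval −0.91 to −0.46, adjusted p = 1.77e-05) in the average. The benzo-LXA4 call held in 3 of 12 fits that left out a library of those groups.

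The list of basolateral carriers and their heavy chain was divided: of 8 genes, 3 rose and 3 fell in the average. Those that rose include Slc43a3, a nucleobase carrier. Of all genes, 18.8% rose and 16.6% fell in the average. Of the exchangers that work with Slc3a2, Slc7a7 and Slc7a8 fell, Slc7a5 rose and Slc7a6 did not pass. Slc7a7 (y+LAT1, which passes cationic amino acids to the blood) ran from 155 to 214 CPM (median 183) in nondiabetic and from 91.1 to 133 CPM (median 120) in diabetic LXA4 mice, with no overlap, a log2 change of −0.64 (adjusted p = 0.00403), and −0.34 (adjusted p = 0.00455) in the average. Slc7a8 (LAT2, a neutral amino acid exchanger) ran from 184 to 250 CPM (median 199) and from 95.4 to 161 CPM (median 131) there, also with no overlap, a change of −0.67 (adjusted p = 0.00385), and −0.34 (adjusted p = 0.00662) in the average. Under vehicle the changes were −0.02 and −0.11 (adjusted p = 0.975 and 0.748). Slc3a2 itself fell by 0.26 on the log2 scale in the average (adjusted p = 0.0215). It ran from 55.8 to 129 CPM (median 98.6) in nondiabetic and from 64.9 to 102 CPM (median 78.1) in diabetic libraries, and 16 of 18 diabetic libraries lay below the nondiabetic median.

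Of the 3 Slc43 carriers, Slc43a2 and Slc43a3 rose in the average. Slc43a2 (LAT4, a basolateral carrier of branched-chain amino acids, phenylalanine and methionine) ran from 203 to 228 CPM (median 220) in nondiabetic and from 226 to 362 CPM (median 279) in diabetic benzo-LXA4 mice, a log2 change of 0.40 (adjusted p = 0.0135). The ranges overlapped by a narrow margin, and without diabetic benzo-LXA4 replicate 4 the call was lost (adjusted p = 0.0569). In the average Slc43a2 rose by 0.26 (adjusted p = 5.89e-04) and Slc43a3, a nucleobase carrier of the same family, by 0.28 (adjusted p = 0.00889). Slc43a3 ran from 14.9 to 31.5 CPM (median 25.7) in nondiabetic and from 17.0 to 40.1 CPM (median 31.9) in diabetic libraries, with 15 of 18 above the nondiabetic median. Slc43a1 had 0.13 (adjusted p = 0.640) and medians of 1.98 and 2.13 CPM.
Slc7a5 (LAT1, the large neutral amino acid exchanger of growing cells) ran from 1.57 to 2.53 CPM (median 2.32) in nondiabetic and from 3.11 to 7.79 CPM (median 4.34) in diabetic LXA4 mice, with no overlap. The log2 change was 1.11 (SE 0.30, adjusted p = 0.00695) under LXA4, 0.30 (adjusted p = 0.593) under vehicle and 0.57 (adjusted p = 0.00946) in the average. Slc7a6, the related y+LAT2, had 0.16 (adjusted p = 0.407) in the average.

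Of the 7 genes for glutamine, glutathione supply and amino acid stress, Slc38a3 rose and Slc38a4 fell in the average. Of all genes, 35.4% passed there. Slc38a3 (SNAT3), the basolateral glutamine carrier that supports ammonia formation and rises in acidosis, ran under benzo-LXA4 from 15.9 to 36.5 CPM (median 28.4) in nondiabetic and from 49.1 to 77.9 CPM (median 55.0) in diabetic mice. Under vehicle it ran from 23.5 to 45.8 CPM (median 35.5) and from 35.0 to 140 CPM (median 48.9), and under LXA4 from 17.9 to 43.6 CPM (median 28.9) and from 16.8 to 80.6 CPM (median 47.9). The groups were apart under benzo-LXA4 and overlapped under the others. The log2 change was 1.05 (SE 0.31, adjusted p = 0.0456) under benzo-LXA4, 0.88 (adjusted p = 0.0845) under vehicle and 0.64 (adjusted p = 0.115) under LXA4, and 0.86 (95% interval 0.50 to 1.22, adjusted p = 3.78e-04) in the average. The benzo-LXA4 call held in 1 of 12 fits that left out a library.

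Slc38a4 (SNAT4) ran from 2.08 to 5.01 CPM (median 3.41) in nondiabetic and from 0 to 3.17 CPM (median 1.92) in diabetic libraries, all 18 below the nondiabetic median, a log2 change of −0.79 (adjusted p = 1.95e-04). The value of 0 belongs to diabetic LXA4 replicate 6, and the average was −0.76 (adjusted p = 3.44e-05) without the pair of libraries rich in structural RNA. Slc1a5 (ASCT2, a glutamine exchanger) passed under LXA4 with a log2 change of 0.86 (adjusted p = 0.00633). Its diabetic replicate 6 stood at 88.1 CPM against 25.7 to 34.4 CPM in the other 5, and without that pair the change was 0.51 (adjusted p = 0.0245). Slc7a11, Slc1a4 and Slc38a2 are among the known targets of ATF4, the transcription factor of amino acid starvation. They had 0.16, −0.25 and −0.18 in the average, and Slc38a1 had 0.16, and none of these passed. Slc38a2 was the most counted of them, with medians of 72.5 CPM in nondiabetic and 58.6 CPM in diabetic libraries, and Slc7a11 the least, with 0.607 and 0.701 CPM. The other genes, called ones included, were not sorted by whether ATF4 targets them, so these values do not describe its targets as a set.

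Among the other genes called, Slc38a11 ran from 0.327 to 0.655 CPM (median 0.538) in nondiabetic and from 0 to 1.57 CPM (median 1.26) in diabetic LXA4 mice. Its log2 change there was 1.20 (adjusted p = 0.0104), and 0.71 (adjusted p = 0.00498) in the average. Slc36a4, an intracellular carrier of tryptophan and proline, rose by 0.29 in the average (adjusted p = 3.15e-04), with all 18 diabetic libraries above the nondiabetic median of 11.4 CPM. Slc38a6 ran from 27.7 to 46.0 CPM (median 38.3) in nondiabetic and from 20.8 to 53.3 CPM (median 45.1) in diabetic libraries, and rose by 0.20 (adjusted p = 0.0300). Slc38a7, a lysosomal glutamine carrier, ran from 14.6 to 27.9 CPM (median 20.2) and from 14.6 to 28.1 CPM (median 17.3), and fell by 0.17 (adjusted p = 0.0455), a call that held in 13 of 36 fits that left out a library. Slc38a9, the lysosomal arginine sensor of mTORC1, and Slc38a10 had 0.07 (adjusted p = 0.348) and −0.09 (adjusted p = 0.256), and both passed without the pair of libraries rich in structural RNA (0.08, adjusted p = 0.0123, and −0.12, adjusted p = 4.07e-04).

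The 4 carriers of osmolytes, GABA and creatine did not pass in any comparison, beside 35.4% of all genes in the average. Slc6a6, the taurine carrier, ran from 442 to 573 CPM (median 510) in nondiabetic and from 373 to 652 CPM (median 452) in diabetic libraries, a log2 difference of −0.10 (95% interval −0.22 to 0.03, adjusted p = 0.211). Slc6a8 (creatine) had 0.13 (95% interval −0.05 to 0.32), Slc6a13 (GABA and taurine) −0.09 (95% interval −0.20 to 0.02) and Slc6a12 (betaine) 0.80 (95% interval 0.00 to 1.60, adjusted p = 0.111). Slc6a12 was variable, from 0.131 to 6.03 CPM over all libraries. The remaining genes with no call, Slc1a2, Slc1a3, Slc6a4, Slc6a9, Slc6a17, Slc7a4 and Slc7a6os, had differences from −0.17 to 0.21 in the average. Slc1a2, a glutamate carrier, had −0.56 (adjusted p = 0.0599) under vehicle, and passed there without nondiabetic replicate 3 and diabetic LXA4 replicate 6 (−0.64, adjusted p = 0.00906).

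LXA4 and benzo-LXA4 were each compared with vehicle within diabetic and within nondiabetic mice, to see whether the compounds moved these genes. In diabetic mice 0 of 51 genes passed with LXA4, beside 0.356% of all genes, and 0 with benzo-LXA4, beside 0% of all genes. At an unadjusted p under 0.05 there were 7 and 3, beside 15.7% and 5.67% of all genes. In nondiabetic mice 0 of 51 passed with either compound, beside 0% of all genes in both, with 3 and 2 at an unadjusted p under 0.05, beside 6.15% and 2.87% of all genes. The interaction with diabetes gave 0 for LXA4 (0.248% of all genes) and 0 for benzo-LXA4 (0% of all genes), with 12 and 4 unadjusted, beside 16.5% and 4.28% of all genes. DESeq2 likewise called none, apart from Slc15a4 with benzo-LXA4 in diabetic mice.

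Slc15a4, the lysosomal carrier of histidine and peptides in immune cells, ran from 28.5 to 31.2 CPM (median 30.9) in diabetic vehicle, from 29.3 to 48.4 CPM (median 33.0) in diabetic LXA4 and from 33.2 to 41.3 CPM (median 39.1) in diabetic benzo-LXA4 mice. The benzo-LXA4 libraries all lay above the vehicle libraries, with a log2 difference of 0.32 (95% interval 0.16 to 0.48) that did not pass by edgeR's quasi-likelihood test (adjusted p = 0.237). It passed without the pair of libraries rich in structural RNA, neither of which is in these groups (adjusted p = 0.0184). Slc7a12 had −2.22 (95% interval −3.55 to −0.90, adjusted p = 0.359) with benzo-LXA4 and −0.94 (95% interval −2.20 to 0.33, adjusted p = 0.461) with LXA4. In the diabetic benzo-LXA4 libraries it lay between 3.91 and 8.15 CPM, within the range of nondiabetic vehicle mice.

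The other genes with the smallest p also stayed short of the threshold. With LXA4 in diabetic mice Slc7a7 had −0.50 (95% interval −0.83 to −0.18, adjusted p = 0.159) and Slc15a3 −0.57 (95% interval −0.94 to −0.20, adjusted p = 0.160). With benzo-LXA4 Slc7a7 had −0.49 (95% interval −0.82 to −0.17, adjusted p = 0.450) and Slc15a3 −0.10 (95% interval −0.46 to 0.26). In nondiabetic mice the smallest p with LXA4 belonged to Slc1a1 (0.21, 95% interval 0.04 to 0.38, adjusted p = 0.809) and Slc6a12 (−1.71, 95% interval −3.18 to −0.23, adjusted p = 0.812), and with benzo-LXA4 to Slc36a2 (4.34, adjusted p = 0.649) and Slc1a2 (−0.41, adjusted p = 1.00). For the interaction with LXA4 the smallest p belonged to Slc1a1 (−0.34, adjusted p = 0.185) and Slc7a7 (−0.63, adjusted p = 0.189), and for that with benzo-LXA4 to Slc36a2 (−6.18, adjusted p = 0.890) and Slc1a2 (0.71, adjusted p = 0.937). Both comparisons of a state share its vehicle libraries, and the doses of the compounds differ, so their values stand side by side and were not tested against each other. A p above the threshold does not show that either compound left these genes as they were: for Slc15a1, for example, the interval with LXA4 in diabetic mice was −0.37 to 0.66 and with benzo-LXA4 −0.20 to 0.81.

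**Figure D5:**
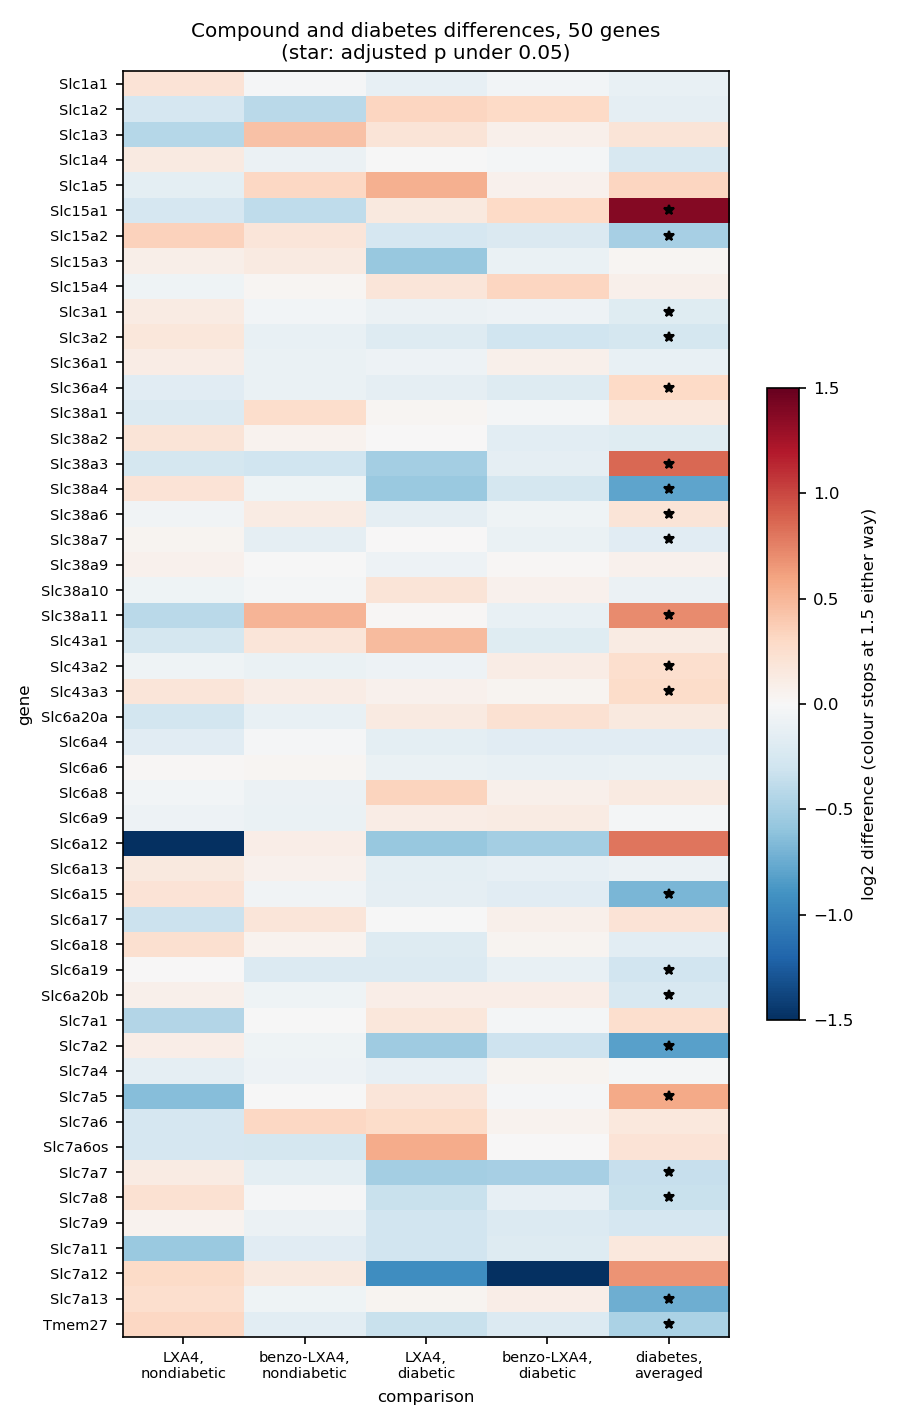
Log2 difference of 50 genes (all but Slc36a2) for each compound against vehicle in nondiabetic and diabetic mice and for diabetes averaged over treatments, with the colour held at 1.5 either way and a star for adjusted p under 0.05. Stars stand only in the diabetes column, at 21 genes.

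Other genes of amino acid handling were counted from lists that were chosen with earlier results of these data known. Of all genes, 35.4% passed in the average, 5.6% under vehicle, 27.7% under LXA4 and 4.06% under benzo-LXA4. Of 10 partners and other amino acid carriers, 5 fell and 1 rose in the average, 3 fell under vehicle, 3 under LXA4 and 1 under benzo-LXA4. Slc16a10 (TAT1, the basolateral carrier of aromatic amino acids) fell in every treatment, by 0.66, 0.58 and 0.53 on the log2 scale (adjusted p = 0.00600, 0.00445 and 0.0319). Pdzk1, the scaffold of brush border transporters, fell by 0.55 under vehicle (adjusted p = 0.00794) and 0.44 under LXA4 (adjusted p = 0.00953), and had −0.30 (adjusted p = 0.198) under benzo-LXA4.

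Of 17 genes of the amino acid stress response, 5 rose and 4 fell in the average. Stc2 (stanniocalcin 2) rose by 0.75 (adjusted p = 1.21e-06) and Trib3, a pseudokinase that restrains ATF4, by 0.60 (adjusted p = 0.00343). Atf4 itself fell by 0.19 (adjusted p = 0.0261) and the serine synthesis enzymes Psat1 and Phgdh by 0.59 and 0.50 (adjusted p = 0.00123 and 0.0445). Of 15 measured amino acid breakdown genes 3 fell and none rose in the average, among them Gatm, the first enzyme of creatine synthesis (−0.59, adjusted p = 0.00131). Ddc, the decarboxylase that forms dopamine from DOPA, rose in diabetes under vehicle (0.48, adjusted p = 0.0359) and fell under LXA4 (−0.57, adjusted p = 0.00388), with −0.02 (adjusted p = 0.905) in the average. It also fell with LXA4 in diabetic mice (−0.60, adjusted p = 0.0472), and its interaction of LXA4 with diabetes passed (−1.05, adjusted p = 0.0212). Of 5 measured hypertonicity genes 2 fell and none rose in the average, a share near that of all genes (35.4%). Of 9 androgen-responsive kidney genes 8 fell and none rose in the average, with 2 under vehicle, 5 under LXA4 and 0 under benzo-LXA4. Among them Odc1, ornithine decarboxylase, fell by 0.91 (adjusted p = 2.30e-04) and Kap, the kidney androgen-regulated protein, by 0.61 (adjusted p = 0.00419).

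Markers of other cells were read from the same fits. Of the 7 proximal tubule markers, 5 fell in the average (Hnf4a, Lrp2, Miox, Slc27a2 and Slc34a1), beside 16.6% of all genes. The endocytic receptor Lrp2 fell by 0.42 (adjusted p = 2.26e-05). Of 3 markers of the early proximal tubule, Gatm and Slc5a2 fell in the average. Of 5 markers of the late proximal tubule, Acsm3 and Atp11a fell and Slc5a10 rose. Podocyte markers rose for 3 of 4 genes in the average, beside 18.8% of all genes. Under vehicle, LXA4 and benzo-LXA4 0, 1 and 0 of them passed. Their summed level had medians of 172 and 201 CPM in nondiabetic and diabetic vehicle mice, with ranges that overlapped (165 to 187 and 177 to 218 CPM). None of 5 collecting duct markers passed. Umod, of the thick ascending limb, fell by 0.38 (adjusted p = 0.0161) and Kdr, an endothelial receptor, by 0.18 (adjusted p = 0.0183) in the average. Each was the 1 gene of 4 in its list to pass there. In both lists 2 genes had averaged differences above 0 and 2 below. All 5 urothelium markers were higher in diabetic than in nondiabetic mice under LXA4, with a median log2 difference of 2.74, and Upk1a and Upk2 passed (adjusted p = 0.0439 and 0.0441). Their summed level there ran from 0.898 to 6.57 CPM (median 1.31) in nondiabetic and from 1.19 to 30.9 CPM (median 11.8) in diabetic libraries. Under vehicle and benzo-LXA4 all 5 had differences below 0 and none passed, and the LXA4 interaction had a median of 3.53 with none passing. The part of cell composition, urothelium included, in the transporter differences was not tested. The library kit was directional, and the strand setting of the counting is not known here. The exons of 15 of the 51 genes lie over those of a gene on the opposite strand, among them the called genes Slc3a1 (Prepl), Slc6a20b (Sacm1l) and Slc7a7 (Oxa1l), whose reads could hold part of the partner's.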

How the data were processed

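Kidney cortex RNA of the 36 samples was read as gene counts. The authors deposited raw counts, which are whole numbers per gene in a single table. Per the labels' protocols the libraries were made from 200 ng of total RNA after ribosomal RNA depletion with a directional kit, and the submitters' processing notes name bcl2fastq 2.17.1.14, STAR, featureCounts and the GRCm38 build. For settings and annotation release, the sources used here give nothing. Columns were matched to samples by the group letters and replicate number, with 0 unmatched. The table's lowest row total was 370, so genes with fewer counts were not analysed here.

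The counts were tested with edgeR 4.0.16 (R 4.3.3): TMM factors, the low-count filter of edgeR over 6 groups, and 1 quasi-likelihood fit over all 36 libraries without covariates. P-values were adjusted over all 15726 genes tested, called under 0.05 with no fold minimum, and are 2-sided. Coordinates and exon lengths come from GENCODE M21 on GRCm38, where 15692 gene IDs were found, all 51 members included (50 under the same symbol). The procedure was checked on simulated data. Alternatives were DESeq2 1.42.0, RLE factors, no filter, fits of the compared groups only, a replicate block, leaving out each library, and leaving out the pair rich in structural RNA. Values are named for genes called in any comparison, for the role lists and, where none was called, for the smallest p-values. The genes, lists and alternatives were chosen with earlier results of these data known, and the promoter motifs after seeing the values. Depth limits genes under about 1 CPM most, since intervals rest on few counts there.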

Additional observations from a re-analysis of the deposited data

Results flagged for a closer look

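In groups of 6 libraries, 22 of 252 groups of 42 genes held a library that stood apart from its group, its gap to the nearest other library being over 0.625 of the group's range. Chance flags about 1 in 20 groups. Diabetic LXA4 replicate 6, the library with 42.9% structural RNA, was the one apart in 8 of them: it was high for Slc15a4 (48.4 CPM), Slc1a5 (88.1), Slc43a1 (8.03) and Slc6a8 (347) and low for Slc38a6 (20.8), Slc43a3 (17.0), Slc7a9 (31.6) and Tmem27 (168). Diabetic LXA4 replicate 5 was high for Slc7a1 (38.6 CPM) and Slc7a6 (18.8).

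Nondiabetic benzo-LXA4 replicate 1, the library high in adipocyte markers, was high for Slc36a2 (27.6 CPM) and Slc1a5 (51.0) and low for Slc38a6 (31.1). Diabetic vehicle replicate 4 was high for Slc38a3 (140 CPM) and Slc6a18 (772), and diabetic vehicle replicate 6 was low for Slc3a2 (64.9). Diabetic benzo-LXA4 replicate 4 was high for Slc3a1 (481 CPM) and replicate 3 low for Slc7a2 (5.65). Nondiabetic vehicle replicate 2 was low for Slc15a1 (0.533 CPM) and high for Slc36a2 (0.775). Nondiabetic LXA4 replicate 2 was high for Slc6a18 (638 CPM) and replicate 5 for Slc6a20a (34.5). No cause of these values was tested.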

How the results depend on the processing

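The number of transporter genes called for diabetes changed with the test, the groups fitted and the libraries left out. Under vehicle the 2 calls became 5 with DESeq2 (adding Slc1a2, Slc36a4 and Slc38a3), 1 with the vehicle groups alone (without Slc7a13) and 4 without the pair of libraries rich in structural RNA (adding Slc1a2 and Slc6a15), with 1 to 6 when leaving out each library. All genes called there went from 881 to 1329, 342 and 1399. Under LXA4 the 18 calls became 22 with DESeq2, 15 with those groups alone and 26 without the pair. Leaving out each library gave 16 to 25 (25 without diabetic LXA4 replicate 6). All genes called under LXA4 went from 4353 (27.7%) to 5044 (32.3%), 2338 (15.1%) and 5796 (36.9%). Under benzo-LXA4 the 6 became 10 with those groups alone and 9 without the pair. With those groups alone Slc36a2 was removed by the low-count filter and not tested. Leaving out each library gave 3 to 6 (3 without diabetic benzo-LXA4 replicate 4). All genes called under benzo-LXA4 went from 638 to 1875 with those groups alone, to 1066 with DESeq2 and to 1906 without the pair. Averaged over treatments the 22 became 23 with DESeq2 and 25 without the pair, with 19 to 25 when leaving out each library. All genes called in the average went from 5570 (35.4%) to 6251 (40.1%) with DESeq2 and 7452 (47.4%) without the pair. The averaged comparison uses every group, so no fit on fewer groups was run. For benzo-LXA4 in diabetic mice the 0 became 1 with DESeq2 and 1 without the pair, Slc15a4 both times. The other compound and interaction counts were 0 under each alternative run, 0 to 0 when leaving out each library. For LXA4 in diabetic mice all genes called went from 56 to 231 with DESeq2, 1 with those groups alone, 28 with the replicate block and 93 without the pair, and for its interaction with diabetes from 39 to 266, 0, 9 and 129. For benzo-LXA4 in diabetic mice they went from 0 to 52, 3 with those groups alone, and 48 without the pair, and for LXA4 and benzo-LXA4 in nondiabetic mice from 0 to 3 and 2 with DESeq2. With the replicate number as a block the diabetes counts were 2, 19, 5 and 21 under vehicle, LXA4, benzo-LXA4 and in the average, and the averaged call of Slc36a2 was lost. Deviations of same-numbered libraries had a median correlation of −0.0035 over 90 pairs (−0.42 to 0.47, 29 over 0.1). Libraries with other numbers had a median of −0.0031. These medians gave no sign that the numbers pair samples, and cannot exclude it. Of 48 called changes of single genes, none turned direction. All 48 passed with DESeq2, RLE factors, no filter and without the pair, and 46 with the block. With only the compared groups fitted, 20 of the calls tested again passed and 5 did not, and Slc36a2 under benzo-LXA4 was not tested. Of 1104 fits that left out a library 1015 kept the call.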
